A study of Mus musculus with 31 samples.

Results

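The immunoglobulin kappa light chain locus of the mouse was taken as chr6:67500001-70720000 of the mm9 build, a stretch of 3.22 Mb. Every NIPBL or Rad21 peak of the 26 deposited chromatin immunoprecipitation (ChIP-seq) lists that overlapped it was used, which gave 20719 of 17061930 peaks. The choice rests on position alone. The stretch was divided at position 70660001 into the V array of 3.16 Mb and a last part of 60 kb, called the J-C-enhancer end, which holds the J segments, the constant region and the kappa enhancers. RefSeq's GRCm38.p6 annotation was used for the order of genes only, because its coordinates are not those of mm9. It lists 162 Igkv genes, of which 102 are V segments and 60 are pseudogenes, running from Igkv2-137 to Igkv3-1. After Igkv3-1 come Gm46961, the 5 J segments Igkj1 to Igkj5, the constant region Igkc, and then Gm30211 and Rpia. Sites are given by position here and are not assigned to single V segments or enhancers, since no mm9 annotation or sequence was used.

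Cohesin is a ring-shaped complex that extrudes loops of chromatin, and it halts mainly where the protein CTCF is bound. Rad21 is the subunit that closes the ring, so Rad21 peaks mark places where cohesin dwells, whereas NIPBL loads cohesin and keeps it extruding. At the kappa locus a V segment is joined to a J segment in B cell precursors by the RAG recombinase, by deletion or by inversion depending on the orientation of the V segment. Mature B cells have passed that step, and an intronic enhancer between the J segments and Igkc and further enhancers downstream of Igkc drive transcription of the joined gene.

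All cells were labelled C57BL/6 and deficient in AID, the deaminase that initiates class switching. NIPBL was mapped in 3 libraries of splenic mature B cells stimulated with anti-CD40/IL4 for 48 h and in 3 unstimulated ones. It was also mapped in the mouse B lymphoma line CH12F3, in 2 libraries stimulated with anti-CD40/IL4/TGF-β over 24 h and in 2 unstimulated ones. Rad21 was mapped in stimulated (n = 3) and unstimulated (n = 3) splenic B cells, in stimulated i3CBEs cells (n = 3), and in stimulated (n = 4) and unstimulated (n = 3) CH12F3 cells. The study's stated subject is loop extrusion by cohesin in heavy chain class switching, so the kappa locus is outside its main question. The titles name the line CH12F3NCdel, and neither that name nor i3CBEs is expanded in the labels. The i3CBEs samples give CH12F3 as their source, and 1 label field of the CH12F3 and i3CBEs Rad21 samples names splenic B cells, against title and source, and is also the field that gives their AID deficiency. CH12F3 is a clonal line, and its kappa rearrangements are not stated in the labels, whereas splenic B cells are a mixture of many rearrangements. The part that DNA lost from a rearranged allele has in any value was not tested. No label ties a replicate to its own animal or culture, and the p-values therefore reflect only how far these samples spread, which may be technical. Cell types were not checked against markers, since the lists hold no expression values.

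The lists differed widely in length, and depth is unknown because they carry no read numbers. NIPBL lists held 890499 to 1332862 peaks, splenic Rad21 lists 149409 to 1236385, i3CBEs lists 42659 to 97738 and CH12F3 Rad21 lists 95464 to 271662. Each list was therefore reduced to its 20000 peaks with the highest −log10 p, called top peaks, which covered 5.13 to 17.0 Mb of the genome per library.

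Rad21 occupied the kappa locus as a row of narrow sites that returned at the same positions in library after library. Merging overlapping top peaks of the 16 Rad21 libraries gave 86 sites, 79 in the V array and 7 in the J-C-enhancer end, with a median width of 780.5 bp. Of these, 14 had a top peak in all 16 libraries, which is 16.3% of the kappa sites, and 19.6% of Rad21 sites in the genome did so. A further 18 sites had a top peak in 1 library alone (20.9%, with 33.4% in the genome). The share of sites common to all libraries is near that of the genome. No kappa site had a top peak in every splenic and no other Rad21 library (0.671% in the genome) or the reverse (1.47%). None separated stimulated from unstimulated CH12F3 libraries in either direction (0.0602% and 0.0758%), and none separated i3CBEs from stimulated CH12F3, either as present in all of i3CBEs alone (0.285%) or in all of stimulated CH12F3 alone (0.488%).

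**Figure D1:**
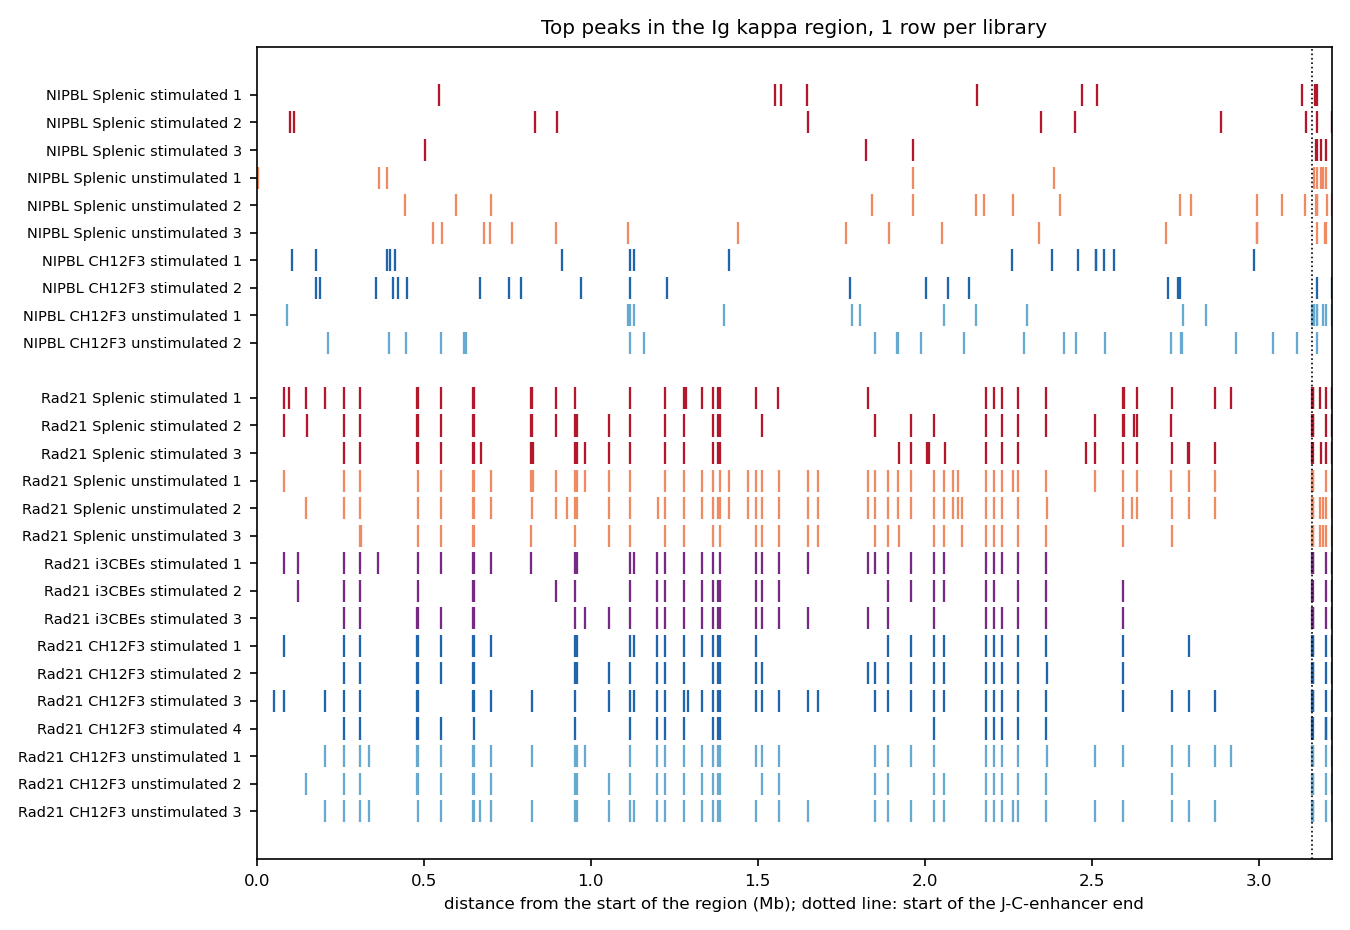
Each row is a library and each tick is a top peak, placed by its distance in Mb from the start of the kappa region; the dotted line marks the start of the J-C-enhancer end, and colours mark cell type and stimulation. Rad21 ticks line up in columns, with 14 sites present in all 16 rows, and NIPBL ticks rarely do, except just past the dotted line, where 1 site is present in 9 of 10 rows.

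The 14 common sites were unevenly spaced. The gap to the next one ranged from 14.0 to 879 kb, with a median of 102 kb. A stretch of 793 kb without a common site followed chr6:68887610-68889644. The widest gap, 879 kb, separated chr6:69778390-69779420 from chr6:70658479-70660377, a site at the very border of the J-C-enhancer end. The last 60 kb thus began with the border site and ended with chr6:70700035-70704137 and chr6:70718167-70719381.

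The common site with the best median rank was chr6:70718167-70719381, just inside the right edge of the region. A rank of 1 is the strongest peak of a list, and fold enrichment is the authors' value for the peak over the caller's background. In stimulated spleen its top peaks had folds of 15.1, 29.1 and 20.3, and in unstimulated spleen 32.1, 30.2 and 21.2. In i3CBEs the folds were 12.0, 17.1 and 16.4, in stimulated CH12F3 31.5, 19.2, 16.2 and 15.9, and in unstimulated CH12F3 25.99, 25.8 and 21.2. All groups overlapped except that each i3CBEs fold lay below each unstimulated CH12F3 and unstimulated splenic fold. The median rank of this site over the 16 libraries was 700.5. The widest common site, chr6:70700035-70704137, spanned 4103 bp, had folds between 12.1 and 20.5 and a median rank of 2475.5. Inside the V array the leading sites were chr6:69682335-69683678 (median rank 2202, folds 8.52 to 37.1), chr6:67807592-67808715 (median rank 2334, folds 8.87 to 29.8) and chr6:68887610-68889644 (median rank 2427, folds 8.50 to 31.8). Next came chr6:68618099-68619470, with a median rank of 2552.5 and folds between 11.0 and 26.3. The site with the lowest place among the 14 was chr6:69778390-69779420, with a median rank of 9565.5 and folds between 5.86 and 23.5. Folds come from separate lists, so their spread includes differences between lists.

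**Figure D2:**
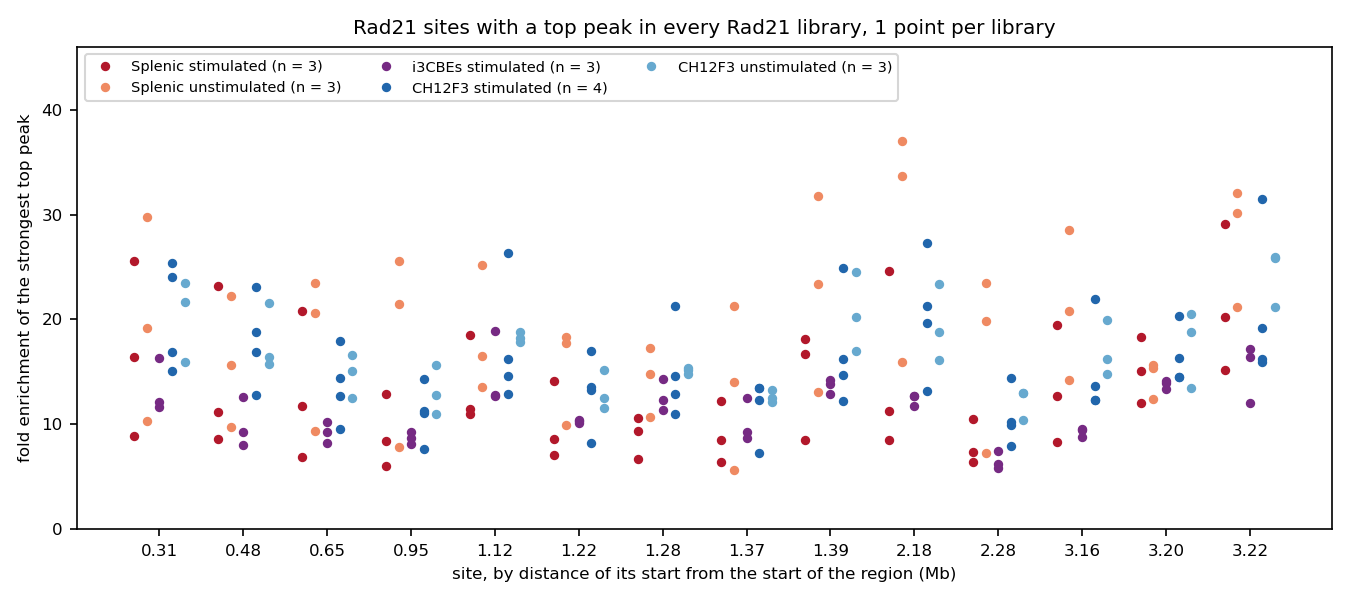
The 14 Rad21 sites with a top peak in every Rad21 library, ordered by distance in Mb from the start of the region, with the fold enrichment of the strongest top peak on the vertical axis and 1 point per library. Folds within a group spread widely, and the rightmost site has folds between 12.0 and 32.1.

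A further pair of Rad21 sites lay a few kilobases inside the J-C-enhancer end. The site chr6:70662880-70663501 had a top peak in 14 of 16 libraries, and chr6:70663976-70664638 in 15 of 16. At the second of these, folds were 4.95, 8.14 and 5.95 in stimulated spleen, where replicate 3 (5.95) had only a peak outside the top 20000, against 20.2, 20.3 and 9.01 in unstimulated spleen. Each stimulated fold lay below each unstimulated one, and no test was run on this site alone. The site was chosen after its values were seen, and the share of sites in the genome with folds apart was not computed. These folds are therefore a description. Further on, chr6:70684778-70686336 had a top peak in 1 of 3 stimulated and 2 of 3 unstimulated splenic libraries and in no i3CBEs or CH12F3 library. Likewise chr6:70693691-70694358 had one in 2 unstimulated splenic libraries alone.

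NIPBL showed a different picture: fewer top peaks than Rad21, many of them narrow, and little return between libraries. The region makes up 0.122% of the genome. It held 0.035 to 0.095% of the top peaks of splenic NIPBL lists and 0.085 to 0.12% of those of CH12F3 NIPBL lists. The low number is thus plainer in spleen, and in CH12F3 it is near the share of the genome. The V array held 6.67 ± 3.21 NIPBL top peaks in stimulated spleen and 11.3 ± 5.51 in unstimulated spleen (SD, n = 3 each), and 18.5 ± 2.12 in stimulated and 18.0 ± 7.07 in unstimulated CH12F3 (SD, n = 2 each). The 134 merged NIPBL sites had a median width of 51 bp, the smallest width in the lists, and 125 of them (93.3%) occurred in 1 library alone, with 86.5% in the genome. None had a top peak in all 10 libraries (1.49% in the genome). In the V array, 120 of 122 sites occurred in 1 library alone. Median widths of kappa NIPBL top peaks were 53 to 191 bp in stimulated spleen, beside 442 to 552 bp in whole lists. In unstimulated spleen they were 51 to 199.5 bp, beside 215 to 656 bp. In unstimulated CH12F3 they were 61 and 266 bp, beside 129 and 664 bp. In stimulated CH12F3 they were 51 bp, beside 51 and 68 bp, so the narrow width there is not particular to the locus.

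The NIPBL site that returned most was chr6:70674209-70675212, in the J-C-enhancer end. It had a top peak in 9 of 10 libraries and was the 1 kappa site in every splenic library (5.48% of sites in the genome). Folds were 11.3, 10.9 and 13.6 in stimulated spleen and 11.1, 17.3 and 12.7 in unstimulated spleen. They were 9.06 in stimulated CH12F3 replicate 2 and 10.7 in both unstimulated CH12F3 libraries. In stimulated CH12F3 replicate 1 the peak there was outside the top 20000, with a fold of 5.49. None of the 16 Rad21 libraries had a top peak at this site, yet 13 of them had a weaker deposited peak over it, with folds between 3.26 and 5.38, widths up to 7414 bp and a rank of 37635 at best.

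A NIPBL site of the V array, chr6:68618058-68619060, was named for its pattern of top peaks over the cell types. It had a top peak in no splenic library and in 4 of 4 CH12F3 libraries, a pattern shown by 0.0164% of NIPBL sites in the genome, where 1.68% were in every CH12F3 library. Its peaks had folds of 3.67, 4.85 and 4.83 in stimulated spleen and 6.93, 4.85 and 4.83 in unstimulated spleen, all outside the top 20000. The folds were 8.28 and 8.14 in stimulated CH12F3 and 8.37 and 11.2 in unstimulated CH12F3. Every splenic fold lay below every CH12F3 fold, the nearest being 6.93 and 8.14. This largely follows from naming the site by its top peaks, so it is no separate support. The site coincides with the common Rad21 site chr6:68618099-68619470, which was in the top peaks of all 16 Rad21 libraries. With 10000 top peaks no site had this pattern, and with 40000 none had it either.

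The comparison of antibodies asks where the loader and the ring lie within the locus. The percent of bases covered by top peaks was computed in 10 kb bins over the genome and tested with limma (adjusted p under 0.05 by Benjamini-Hochberg over all bins tested), each comparison using bins covered in 2 or more of its libraries. With top peaks, Rad21 covered more than NIPBL in most kappa bins that were called. The direction turned in CH12F3 when all deposited peaks were used, where 132 bins were higher for NIPBL and 1 lower of 319 with stimulation (41.4% higher, 73.9% in the genome) and 135 higher and 3 lower of 313 without (43.1%, 67.4% in the genome). A bin covered by 1 of the proteins alone entered the test through that protein, so the counts and medians describe the bins that passed the filter and not all kappa bins. In stimulated spleen 1 of 34 tested kappa bins was higher for NIPBL and 21 were lower, where 26.9% and 34.5% of all tested bins in the genome were. In unstimulated spleen 1 of 56 was higher and 27 were lower (22.7% and 39.1% in the genome). In stimulated CH12F3 2 of 40 were higher and 18 lower (13.6% and 50.3%), and in unstimulated CH12F3 2 of 45 were higher and 22 lower (13.9% and 51.6%). The median difference over tested kappa bins was −5.12 points in stimulated and −5.53 in unstimulated spleen, beside −1.78 and −2.45 over all bins tested. In CH12F3 it was −3.25 with and −3.94 without stimulation, beside −3.09 and −3.06. With bins covered in 1 or more libraries the kappa medians were −0.937 and −2.75 in stimulated and unstimulated spleen, beside 0.17 in the genome in both, and −0.988 and −1.47 in stimulated and unstimulated CH12F3, beside 0.255 in both. In stimulated and unstimulated CH12F3 they turned to 2.25 and 2.57 with all deposited peaks. The share of kappa bins lower for NIPBL was 61.8% in stimulated spleen and 48.2% in unstimulated spleen, and 45.0% in stimulated and 48.9% in unstimulated CH12F3, the CH12F3 shares being near the background. The share higher for NIPBL was 2.94%, 1.79%, 5% and 4.44% in the same order. Without stimulated CH12F3 NIPBL replicate 1, or without replicate 2, no kappa bin was called in that comparison (0.687% and 2.14% in the genome, in either direction). Without unstimulated splenic Rad21 replicate 3 there were 45 calls in unstimulated spleen, which is 84.9% of the tested kappa bins, with 73.8% in the genome. Without NIPBL replicate 1, 2 or 3 there were 17, 15 and 15, which is 30.9%, 28.3% and 27.3%, with 54.9%, 53.9% and 53.1% in the genome. In unstimulated CH12F3 there were 11 calls without NIPBL replicate 1 (26.2%, 41.8% in the genome) and 12 without replicate 2 (27.9%, 51.0% in the genome). Peak names give a control sample for every Rad21 list and for NIPBL replicate 2 of both CH12F3 groups, and none for the other NIPBL lists; the part of this in the comparison was not tested.

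Of the bins lower for NIPBL, chr6:68880001-68890000, which holds the common Rad21 site of that stretch, had no NIPBL coverage in any library of the 4 comparisons. Rad21 covered 14.5 ± 3.73% of it in stimulated spleen and 14.1 ± 7.87% in unstimulated spleen (SD, n = 3 each). In CH12F3 it was 11.7 ± 2.89% with stimulation (n = 4) and 14.5 ± 5.41% without (n = 3). The bin was called in all 4 comparisons, and since Rad21 alone brought it past the filter, these values are given as a description. The border bin chr6:70650001-70660000 had NIPBL coverage in 1 of 10 libraries, 2.14% in unstimulated CH12F3 replicate 1, whereas Rad21 covered 7.80 ± 1.23% in stimulated and 10.6 ± 4.26% in unstimulated spleen (n = 3 each). At chr6:70700001-70710000 NIPBL covered 0.637 ± 1.103% and Rad21 10.7 ± 4.16% in stimulated spleen. In unstimulated spleen it was 2.39 ± 1.63% against 24.8 ± 11.7% (limma adjusted p = 0.0174). In stimulated CH12F3 it was 0% for NIPBL and 11.7 ± 3.13% for Rad21. Rad21 alone brought the bin past the filter in stimulated CH12F3 and in stimulated spleen, where 1 NIPBL library had coverage (1.91%). The values of these 2 states are therefore a description. The difference in unstimulated CH12F3, 5.78 ± 8.17% against 12.3 ± 7.01%, was not called (limma adjusted p = 0.364). In this bin the difference turned, once all peaks were used, to 2.84 points in stimulated spleen and 8.33 points in stimulated CH12F3, higher for NIPBL.

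The bin higher for NIPBL in 3 of the 4 comparisons was chr6:70670001-70680000, which holds the site seen in 9 of 10 libraries. NIPBL covered 3.06%, 2.74% and 3.63% of it in stimulated spleen and 8.74%, 5.83% and 4.33% in unstimulated spleen, and Rad21 top peaks covered 0% in all 6 splenic libraries. In unstimulated CH12F3 NIPBL covered 5.45% and 1.81% and Rad21 0%. NIPBL alone brought this bin past the filter, so these values too are a description. This result rests on the restriction to top peaks. With all deposited peaks, Rad21 covered 49.5 ± 18.7% of the bin in stimulated and 64.0 ± 22.2% in unstimulated spleen, and NIPBL 17.3 ± 3.54% and 23.1 ± 4.80%, so that the difference turned to −32.2 and −40.9 points. In unstimulated CH12F3 it turned to −19.5 points. The other bins higher for NIPBL, chr6:67670001-67680000 and chr6:67900001-67910000 in stimulated CH12F3 and chr6:70270001-70280000 in unstimulated CH12F3, had 0.51% in both NIPBL libraries, which is 1 peak of the smallest width.

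**Figure D3:**
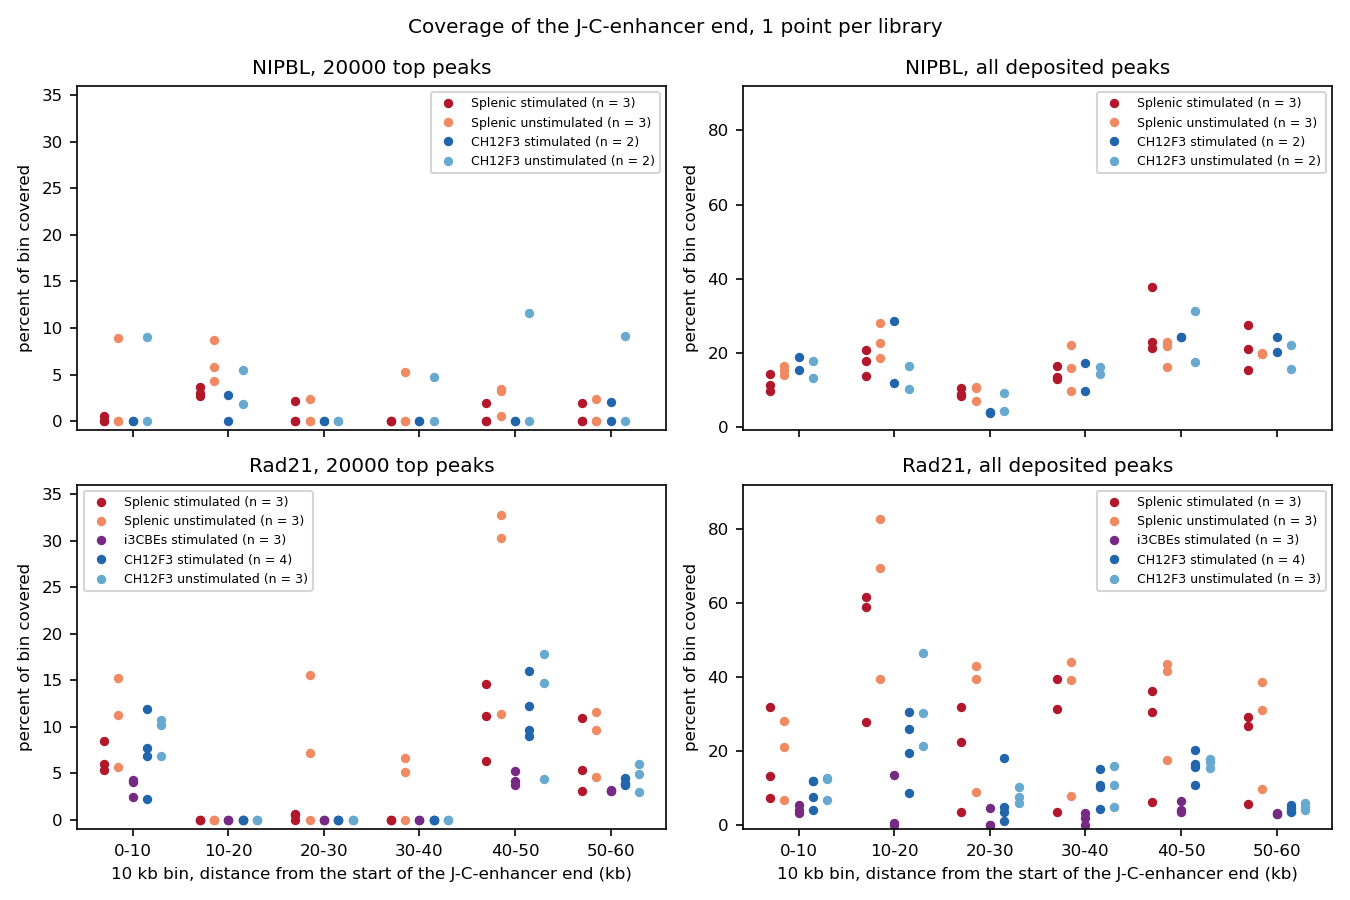
Percent of each 10 kb bin of the J-C-enhancer end covered by peaks, 1 point per library, NIPBL above and Rad21 below, for the 20000 top peaks on the left and all deposited peaks on the right. In the bin 10-20 kb from the start of this end, Rad21 has no top peaks in any library but up to 82.8% coverage by all deposited peaks.

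Over the whole V array NIPBL covered 0.0209 ± 0.00421% in stimulated and 0.0344 ± 0.0206% in unstimulated spleen, against 0.566 ± 0.168% and 0.933 ± 0.471% for Rad21 (SD, n = 3 each). In CH12F3 NIPBL covered 0.0593 ± 0.00277% with and 0.0881 ± 0.00848% without stimulation (n = 2 each), against 0.496 ± 0.226% (n = 4) and 0.641 ± 0.176% (n = 3) for Rad21. The proteins did not overlap in any of the 4 states. The two-sided exact permutation p was 0.100 in both splenic states, 0.133 in stimulated and 0.200 in unstimulated CH12F3, each the smallest that these numbers of libraries allow, and 0.371 after adjustment over 26 tests. With all deposited peaks NIPBL covered more of the V array than Rad21 in CH12F3, by 2.46 points with and 2.48 points without stimulation.

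Few top peaks of NIPBL and Rad21 overlapped by a base or more within the locus. In stimulated spleen 7.79 ± 6.26% of kappa NIPBL top peaks overlapped a Rad21 top peak (SD over 9 pairs of libraries, which share libraries), and 8.46 ± 0.902% did in whole lists. In unstimulated spleen it was 13.8 ± 9.86% with 14.0 ± 3.10% in whole lists. In the other direction 1.60 ± 1.20% of kappa Rad21 top peaks met NIPBL in stimulated spleen against 8.48 ± 0.946% in whole lists, and 3.60 ± 1.88% against 13.9 ± 3.28% in unstimulated spleen. In CH12F3 8.96 ± 2.23% of kappa NIPBL top peaks met Rad21 with stimulation (8 pairs) against 4.74 ± 0.596% in whole lists, and 13.5 ± 10.4% without (6 pairs) against 8.46 ± 4.20%. Of kappa Rad21 top peaks in CH12F3, 4.96 ± 1.54% met NIPBL with stimulation against 4.72 ± 0.603% in whole lists, and 6.23 ± 4.31% without against 8.42 ± 4.22%. The counts behind the kappa shares are small, at most 5 overlapping peaks in a pair.

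Stimulated splenic B cells had fewer Rad21 top peaks in a middle part of the V array than unstimulated ones, but no difference passed a test. None of the 59 tested kappa bins was called by limma, with 0 higher and 10 lower before adjustment at p under 0.05. Here and below, the share over the genome before adjustment was not computed. Counts before adjustment are therefore not read as particular to the locus. In the genome 0.128% of bins were called higher and 2.69% lower. In 9 kappa bins every stimulated library lay below every unstimulated one, which is 15.3%, with 9.76% in the genome, and 0 bins showed the reverse (7.07%). Using all deposited peaks, 0 of 322 bins lay apart in the lower and 2 in the higher direction. The share over the genome was not computed for that setting, so these 2 counts are not read as particular to the locus. The median difference was −2.24 points over tested kappa bins and −0.200 over all bins tested, and it turned to 0.342 over kappa bins and 1.20 over all with all deposited peaks. Of these 9 bins, 7 lay between chr6:68990001 and chr6:69710000. The smallest adjusted p was at chr6:69390001-69400000, where Rad21 covered 0% in the 3 stimulated libraries and 3.84%, 3.42% and 3.48% in the unstimulated ones (limma adjusted p = 0.0751). The next was chr6:69150001-69160000, with 0% against 10.2%, 4.70% and 4.28% (limma adjusted p = 0.0865). At chr6:69700001-69710000 coverage was 0.767 ± 1.33% in stimulated and 5.10 ± 1.06% in unstimulated spleen (limma adjusted p = 0.122). Unstimulated spleen alone brought these 3 bins past the filter, so their values and adjusted p are given as a description. Without unstimulated replicate 3, whose top peaks covered 8.97 Mb against 15.5 and 15.2 Mb in the other unstimulated libraries, 5 of 55 kappa bins were called lower (9.09%), near the 8.19% of the genome in that fit.

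The 3 sites with a top peak in every unstimulated and no stimulated splenic library lie in the same stretch (3.49% of kappa sites, 2.99% in the genome). They are chr6:69062772-69064406, chr6:69149757-69151024 and chr6:69390370-69390859. At the first, folds were 3.82, 6.23 and 4.63 in stimulated spleen, from peaks outside the top 20000, and 19.4, 8.60 and 8.66 in unstimulated spleen. At the third they were 3.18, 5.52 and 5.94 in stimulated spleen and 16.3, 10.5 and 4.94 in unstimulated spleen, so the groups overlap in fold. At the second they were 4.08, 6.10 and 3.89 in stimulated spleen and 12.9, 13.7 and 4.96 in unstimulated spleen, which also overlap. Each stimulated library thus had a deposited peak at each of these sites, outside the top 20000. These sites also had top peaks in 7, 4 and 9 of the 10 i3CBEs and CH12F3 libraries. The reverse pattern was shown by 1 site, chr6:67980465-67981664 (2.19% in the genome). Its folds were 5.14, 10.1 and 6.72 in stimulated spleen and 6.05, 6.32 and 4.33 in unstimulated spleen, which overlap, and with 10000 or 40000 top peaks no site had that pattern.

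The same top peaks were also counted per 500 kb, in steps chosen after the sites had been seen, so these counts are a second description of the stretch and no further support. In the step chr6:69000001-69500000 there were 2, 3 and 2 Rad21 top peaks in stimulated spleen and 9, 9 and 7 in unstimulated spleen. In the next step, chr6:69500001-70000000, there were 5, 5 and 7 against 10, 10 and 8. The groups do not overlap in either step, as was the case for 9.87% of 500 kb steps of the genome in this direction. Neither step passed, with an exact permutation adjusted p of 0.490 over 30 tests. With all deposited peaks both differences turned round, to 30.7 and 24.3 more peaks in stimulated spleen.

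**Figure D4:**
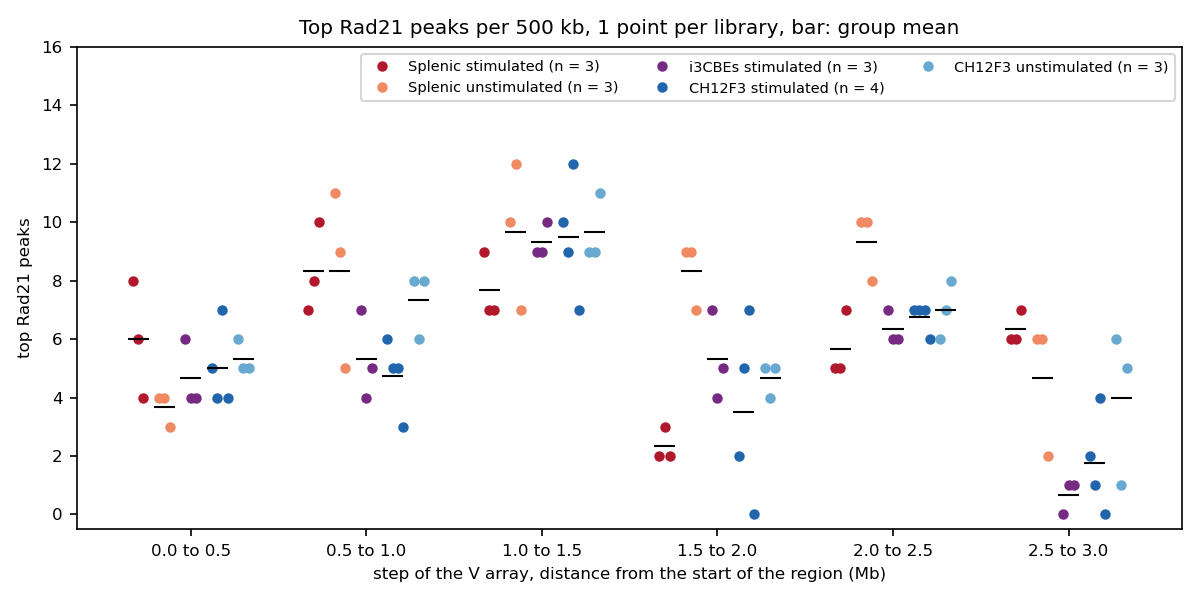
Rad21 top peaks per 500 kb step of the V array, placed by distance in Mb from the start of the region, 1 point per library, with bars at group means and colours for cell type and stimulation. In the step from 1.5 to 2.0 Mb the stimulated splenic libraries have 2 or 3 peaks and the unstimulated ones 7 to 9.

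In the J-C-enhancer end, Rad21 covered 4.02 ± 1.55% in stimulated and 9.27 ± 3.85% in unstimulated spleen (SD, n = 3 each). The groups overlap by the least margin, with 5.657% as the highest stimulated and 5.652% as the lowest unstimulated value (two-sided exact permutation p = 0.200, adjusted p = 0.371 over 26 tests). The largest bin difference of this end was at chr6:70700001-70710000, with 6.35%, 14.6% and 11.2% in stimulated and 30.2%, 32.7% and 11.3% in unstimulated spleen, which overlap (limma adjusted p = 0.317). At chr6:70680001-70690000 Rad21 covered 0.370 ± 0.324% against 7.58 ± 7.80% (limma adjusted p = 0.283), and at chr6:70690001-70700000 0% against 3.95 ± 3.503% (limma adjusted p = 0.244). Unstimulated spleen alone brought chr6:70690001-70700000 past the filter, so its values are a description. The bins chr6:70660001-70670000 and chr6:70710001-70720000 had adjusted p of 0.569 and 0.821 by limma. For NIPBL the coverage of the whole end was 0.885 ± 0.357% against 2.50 ± 1.98% (exact permutation p = 0.200, adjusted p = 0.371), and no kappa bin of 11 was called by limma in either direction (1.75% higher and 1.24% lower in the genome), with 0 before adjustment at p under 0.05. In the V array Rad21 covered 0.566 ± 0.168% in stimulated and 0.933 ± 0.471% in unstimulated spleen (exact permutation p = 0.4).

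**Figure D5:**
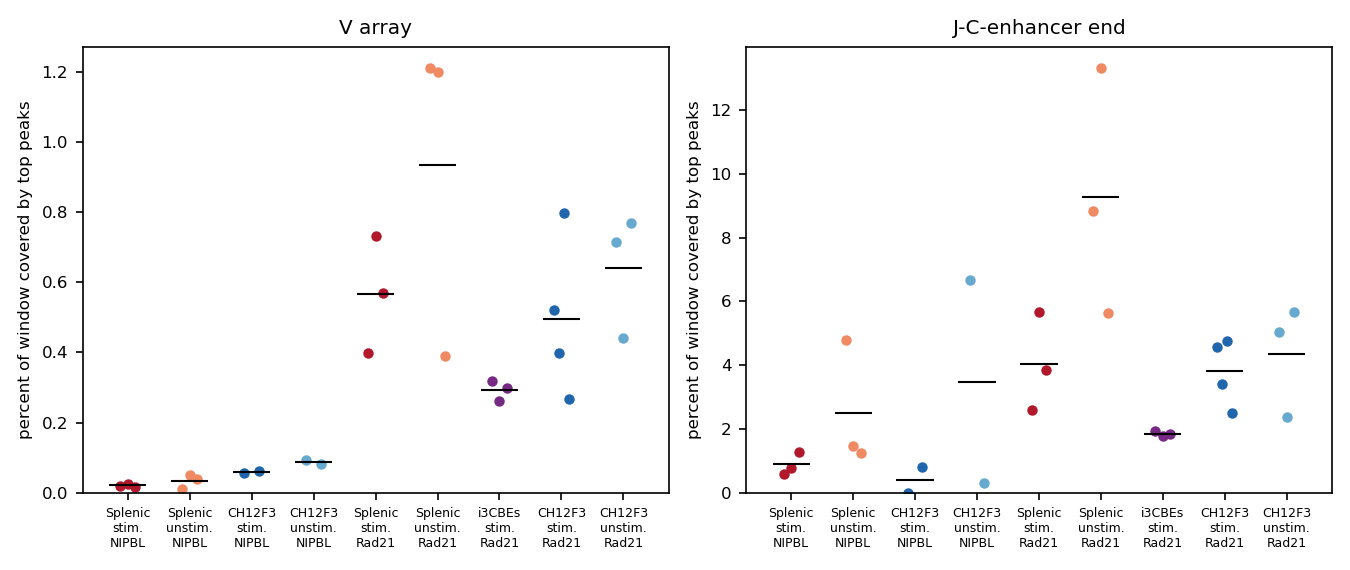
Percent of the V array (left) and of the J-C-enhancer end (right) covered by top peaks, 1 point per library, bars at group means. Coverage of the J-C-enhancer end by Rad21 ranges from 1.79% in an i3CBEs library to 13.3% in an unstimulated splenic library.

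In CH12F3, stimulation left no called difference. By limma, none of 49 Rad21 bins passed (0% higher and 0.0262% lower in the genome), with 0 higher and 6 lower before adjustment at p under 0.05. The smallest adjusted p was at chr6:68830001-68840000, where coverage was 3.79%, 0%, 6.91% and 0% with stimulation against 13.9%, 7.18% and 14.3% without (limma adjusted p = 0.524). The groups do not overlap there, and 2 of 49 bins were of this kind in the lower direction (2.15% in the genome) and 0 in the higher (0.860%). Without unstimulated replicate 2, 3 of 49 kappa bins were called lower (6.12%, 0.782% in the genome). The J-C-enhancer end had 3.81 ± 1.07% coverage with (n = 4) and 4.36 ± 1.75% without stimulation (n = 3; exact permutation p = 0.571). For NIPBL, none of 11 bins was called by limma (0% in the genome in both directions), with 2 higher and 1 lower before adjustment at p under 0.05. The 2 against 2 libraries allow no exact p below 0.333. The difference of the stimulation effect between spleen and CH12F3 was not called in any kappa bin (limma, smallest adjusted p 0.139 for Rad21 and 0.187 for NIPBL, with 10 of 95 before adjustment at p under 0.05).

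The i3CBEs cells had the 14 common Rad21 sites by definition, and their 20000 top peaks together covered less of the genome than those of stimulated CH12F3. No kappa bin of 49 was called against stimulated CH12F3 by limma (0.179% higher and 0.231% lower in the genome), with 0 higher and 6 lower before adjustment at p under 0.05. In 11 bins every i3CBEs library lay below every stimulated CH12F3 library, which is 22.4%, near the 23.1% of the genome, and 0 bins showed the reverse (0.777%). The median difference was −1.18 points over kappa bins and −1.22 over all bins tested. Top peaks of i3CBEs covered 5.53 to 6.31 Mb of the genome against 7.54 to 10.7 Mb in stimulated CH12F3, which moves with these counts. With lists of equal covered length the median difference was −0.220 points over kappa bins and −0.0608 over all, and 7 bins were higher and 3 lower before adjustment at p under 0.05. By limma, 1 of 32 kappa bins was then called higher (3.125%, 7.38% in the genome) and 0 lower (0.991% in the genome). At chr6:70700001-70710000 coverage was 4.15%, 5.22% and 3.74% in i3CBEs and 15.9%, 9.68%, 12.2% and 9.02% in stimulated CH12F3 (limma adjusted p = 0.217). Over the whole J-C-enhancer end it was 1.85 ± 0.0788% in i3CBEs (n = 3) and 3.81 ± 1.07% in stimulated CH12F3 (n = 4). These groups do not overlap, with an exact permutation p of 0.0571, which 3 against 4 libraries cannot go below (adjusted p = 0.371). In the step chr6:70000001-70500000 i3CBEs had 0, 1 and 1 Rad21 top peaks and stimulated CH12F3 2, 1, 4 and 0.

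Few kappa bins were called for Rad21 between splenic B cells and CH12F3. Without stimulation 1 of 60 kappa bins was higher and 1 lower in spleen, by limma, where 10.0% and 13.8% of bins in the genome were. After stimulation 2 of 49 were higher and 1 lower (2.90% and 3.61% in the genome). The kappa shares without stimulation are under those of the genome, and those after stimulation rest on 1 or 2 bins each. The bin chr6:68690001-68700000 was lower in spleen in both comparisons. Rad21 covered 0% of it in all 6 splenic libraries, 6.25%, 4.34%, 7.21% and 3.28% in stimulated CH12F3 and 5.44%, 3.07% and 5.71% in unstimulated CH12F3. CH12F3 alone brought this bin past the filter in both comparisons, so these values are given as a description. The site behind it, chr6:68699280-68700837, straddles the right edge of the bin. It had a top peak in 1 of 6 splenic libraries (unstimulated replicate 2, fold 8.57, in the next bin) and in all 10 i3CBEs and CH12F3 libraries, and the other 5 splenic libraries had weaker peaks with folds between 3.57 and 6.70. With all deposited peaks the differences in this bin were 1.09 and 0.713 points, higher in spleen.

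The bins higher in spleen were chr6:68320001-68330000 and chr6:70130001-70140000 after stimulation and chr6:69420001-69430000 without. In chr6:68320001-68330000 coverage was 5.17%, 11.6% and 8.86% in stimulated spleen and 0%, 0%, 3.95% and 0% in stimulated CH12F3. In chr6:70130001-70140000 it was 2.17%, 5.51% and 7.78% in stimulated spleen and 0% in all 4 CH12F3 libraries. In chr6:69420001-69430000 it was 6.50%, 4.20% and 2.53% in unstimulated spleen and 0% in the 3 CH12F3 libraries. Spleen alone brought each of these bins past the filter, so their values are given as a description. In chr6:68320001-68330000 the 1 covered CH12F3 library was too few to do so. The stimulated comparison had 0 called kappa bins with 10000 or 40000 top peaks, with bins covered in 1 or more libraries, and with the replicate block. Its calls also depend on single libraries, as there were 0 without stimulated CH12F3 replicate 1, 2 or 3 or without stimulated splenic replicate 2, 1 without splenic replicate 3 (2.13%, 1.40% in the genome) and 7 without splenic replicate 1 (16.3%, 10.5% in the genome). In the unstimulated comparison there were 13 higher and 1 lower of 56 without splenic replicate 3, which is 25.0%, under the 37.8% of the genome. There were 5 calls without splenic replicate 1 (10.2%, 24.5% in the genome), 4 without CH12F3 replicate 2 (6.78%, 21.8%) and 1 without CH12F3 replicate 1 or 3 (1.75% in both, 19.1% and 19.5% in the genome). In the step chr6:70000001-70500000 stimulated spleen had 6, 6 and 7 Rad21 top peaks and stimulated CH12F3 2, 1, 4 and 0 (exact permutation p = 0.0571, adjusted p = 0.490). Groups were apart in this direction in 9.74% of steps of the genome.

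For NIPBL no kappa bin was called between spleen and CH12F3 by limma. With stimulation 6 bins were tested, with 0 higher and 3 lower before adjustment at p under 0.05, where 20.3% of bins in the genome were called higher and 1.32% lower. Without stimulation 15 were tested, with 0 higher and 1 lower at that threshold, and no bin of the genome was called in either direction. Without any one of stimulated splenic replicates 1, 2 and 3, 2 bins of 5 or 6 were called lower in spleen after stimulation (3.79%, 3.93% and 3.90% in the genome), and without unstimulated CH12F3 replicate 1, 1 bin of 9 was called lower in the unstimulated comparison (0.294% in the genome). The bin of the NIPBL site with top peaks in CH12F3 alone, chr6:68610001-68620000, had the smallest adjusted p, shared after stimulation with 2 bins that held 1 peak of the smallest width in each CH12F3 library. NIPBL covered 0% in the 3 stimulated splenic libraries and 5.50% and 2.56% in stimulated CH12F3 (limma adjusted p = 0.0552), and 0.170 ± 0.294% in unstimulated spleen against 7.26 ± 4.40% in unstimulated CH12F3 (limma adjusted p = 0.256). CH12F3 alone brought this bin past the filter in both comparisons, and its site was named for its top peaks. These values and adjusted p are therefore a description and no separate support. Rad21 covered this bin in all 16 libraries.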

How the data were processed

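Peak lists of 26 samples, from ChIP-seq against NIPBL or Rad21, were used; the other 5 of 31 samples were not analysed here. Bowtie2, MACS2 and the mm9 build are named in the submitters' processing notes, without versions. Each deposited peak has a score, a fold enrichment, a −log10 p-value and a −log10 q-value made by the authors. Depth is unknown, and peaks were called per sample. Lists were ranked by −log10 p (ties by fold), and the percent of each 10 kb bin covered by the 20000 top peaks was computed for 264200 bins. Where at least 2 libraries of a comparison covered a bin, it was tested with limma 3.58.1 (trend) in R 4.3.3, with Benjamini-Hochberg adjustment over all bins tested. Rad21 libraries of i3CBEs and CH12F3 were fitted together. Coverage of the V array and of the J-C-enhancer end, 26 tests, and peaks per 500 kb were compared by two-sided exact permutation tests. Sites are top peaks of any library merged where they overlapped by a base. The code was tested on simulated data. Named bins are those called, up to the 10 largest per direction, or else the 3 with the smallest p, and the bins of the J-C-enhancer end. Sites in all libraries of an antibody or of a group, or of 1 cell type or state alone, were named; other sites were chosen after their values were seen. The region, lists and tests were chosen with earlier results of these data known. Same-numbered replicates were checked for shared deviations from group means over bins. Stimulated and unstimulated CH12F3 Rad21 libraries correlated at 0.376 to 0.651 for every shared number. Some unlike numbers did so too: stimulated 1 with unstimulated 3 at 0.438, 3 with 1 at 0.358 and 4 with 2 at 0.607. The other unlike numbers correlated at −0.620 to −0.411. The numbers are therefore not shown to mark pairs, and the main fits and exact tests used no pairing. Alternatives were 10000, 40000 or all peaks, lists of equal covered length, no bin filter, a replicate block and each library left out. No pair of lists shared over 1.11% of peak starts.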

Additional observations from a re-analysis of the deposited data

Results flagged for a closer look

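In 4 of 33 sets of values tested, all from the same 4 stimulated CH12F3 Rad21 libraries, 1 library stood apart by Dixon's gap. That gap is the distance to the nearest other library divided by the range. Coverages of 0% and small counts give ties, where a gap of 1 arises readily, so no chance rate is given. In the bin chr6:68320001-68330000 the gap was 1, since replicate 3 had 3.95% and the others 0%. In chr6:69150001-69160000 it was 1, with 7.16% in replicate 3 and 0% in the others. In chr6:69770001-69780000 it was 0.897, with replicate 3 the highest at 7.31% and the lowest library at 2.46%. In the 500 kb step chr6:69500001-70000000 it was 1, since replicate 4 had 6 top peaks and the others 7. Replicate 3 is also the longest list of its group, with 271662 peaks, and the part of list length in these values was not tested.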

How the results depend on the processing

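Of 1255 recomputed values, 957 kept their direction and side of the threshold (or, for counts, stayed within 1.5 times), 181 lost the threshold, 12 gained it, 42 changed direction and 63 moved further; the cause was not tested. The depth of the libraries is unknown, so the limits it sets could not be given. Alternatives added after seeing the data were the 500 kb steps and steps shifted by 250 kb.

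With 10000 top peaks, called kappa bins numbered 1 for Rad21 in unstimulated spleen against CH12F3 and 0 in stimulated spleen against CH12F3; for NIPBL against Rad21 they numbered 10 in stimulated and 16 in unstimulated spleen and 10 in stimulated and 12 in unstimulated CH12F3. With 40000 top peaks the first pair became 7 and 0, and NIPBL against Rad21 gave 44 in unstimulated spleen and 35 in stimulated and 42 in unstimulated CH12F3. With all deposited peaks Rad21 in unstimulated spleen against CH12F3 gave 4, and NIPBL against Rad21 gave 12 in stimulated spleen and 133 in stimulated and 138 in unstimulated CH12F3, of which 132 and 135 were higher for NIPBL (41.4% and 43.1% of kappa bins, 73.9% and 67.4% in the genome). With lists of equal covered length, i3CBEs against CH12F3 gave 1, NIPBL in stimulated spleen against CH12F3 gave 2, Rad21 in spleen against CH12F3 gave 1 with and 4 without stimulation, and NIPBL against Rad21 gave 10 in stimulated spleen and 12 in stimulated and 13 in unstimulated CH12F3. With no filter on empty libraries, Rad21 in stimulated spleen against CH12F3 gave 0 and NIPBL against Rad21 in unstimulated CH12F3 gave 15. The number of tested bins changes with each setting. Counts with no genome share beside them therefore describe the processing and are not read as results about the locus.

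The replicate block changed 1 count: Rad21 in stimulated spleen against CH12F3 had 0 called bins with the block, where the samples share only a number. Same-numbered libraries other than those of stimulated and unstimulated CH12F3 Rad21 correlated at −0.119 to 0.107. No paired analysis was possible for the 5 comparisons with CH12F3 NIPBL because they share fewer than 2 numbers.

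Leaving out 1 library gave 0 to 5 called bins for stimulation in splenic Rad21, 0 to 3 in CH12F3 Rad21, 0 to 1 for NIPBL in unstimulated and 0 to 2 in stimulated spleen against CH12F3, 1 to 14 for Rad21 in unstimulated and 0 to 7 in stimulated spleen against CH12F3. For NIPBL against Rad21 it gave 15 to 27 in stimulated and 15 to 45 in unstimulated spleen, and 0 to 27 in stimulated and 11 to 32 in unstimulated CH12F3. These ranges stand without genome shares and likewise describe the processing only. The coverage difference ranged from −0.0136 to 0.170 points for Rad21 in stimulated spleen against CH12F3 in the V array. In the J-C-enhancer end it ranged from −6.26 to 0.100 for stimulation in CH12F3 NIPBL, −1.54 to 0.0996 in CH12F3 Rad21, −4.16 to 2.20 for NIPBL in unstimulated spleen against CH12F3, −0.605 to 0.933 for Rad21 in stimulated spleen against CH12F3, and −4.06 to 2.30 for NIPBL against Rad21 in unstimulated CH12F3.

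Coverage differences that changed direction with all deposited peaks were those of stimulation in splenic NIPBL (0.125 points) and Rad21 (0.0776) and of NIPBL against Rad21 in stimulated (2.46) and unstimulated (2.48) CH12F3 in the V array. In the J-C-enhancer end they were stimulation in CH12F3 NIPBL (1.19), NIPBL in unstimulated spleen against CH12F3 (1.66, and 0.217 and 0.175 with 10000 and 40000 top peaks), and NIPBL against Rad21 in stimulated (5.51) and unstimulated (1.63) CH12F3. Rad21 in stimulated spleen against CH12F3 in the V array gave −0.00484 with 10000 top peaks.

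With 10000 and 40000 top peaks the locus held 37 and 361 Rad21 sites and 37 and 300 NIPBL sites. Rad21 sites in all libraries numbered 9 and 26 (24.3% and 7.20%, with 19.9% and 7.52% in the genome). Those in 1 library numbered 5 and 249 (13.5% and 69.0%, with 17.3% and 65.9% in the genome). NIPBL sites in 1 library numbered 32 and 284 (86.5% and 94.7%, with 74.7% and 90.7% in the genome). Sites in every stimulated and no unstimulated splenic Rad21 library numbered 0 and 0 (3.21% and 0.472% in the genome). NIPBL sites in every CH12F3 and no splenic library numbered 0 and 0 (0.0466% and 0.0145% in the genome). With 40000, 8 sites were in every unstimulated and no stimulated splenic Rad21 library (2.22%, with 1.23% in the genome). In that setting 1 site was in every stimulated CH12F3 and no i3CBEs library (0.277%, with 0.214% in the genome). With 10000, 0 NIPBL sites were in every CH12F3 library (2.84% in the genome).

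Single bins that changed direction with all deposited peaks, named by their start on chr6, were 70700001 (7 points, and 0.657 with 40000) and 70490001 (0.00333) for stimulation in splenic NIPBL, 67900001 (−0.575) and 70270001 (4.69) in CH12F3 NIPBL, 67900001 (0.895) for NIPBL in stimulated spleen against CH12F3, and 68690001 for Rad21 in spleen against CH12F3 (1.09 with and 0.713 without stimulation). For NIPBL against Rad21 they were 70670001 (−32.2 in stimulated and −40.9 in unstimulated spleen, the second −16.8 with 40000, and −19.5 in unstimulated CH12F3), 70700001 (2.84 in stimulated spleen and 8.33 in stimulated CH12F3), 68720001 (1.74) and 70710001 (17.8) in stimulated CH12F3, and 68860001 (0.112) in unstimulated CH12F3. The bin 69700001 gave 1.87 for stimulation in splenic Rad21 with 40000, and 68860001 gave 0.369 for i3CBEs against CH12F3 with 10000 and with equal lengths. Peaks per 500 kb changed direction with all deposited peaks in the steps from 69000001 (30.7) and 69500001 (24.3) for stimulation in splenic Rad21 and from 67500001 (103) for unstimulated spleen against CH12F3.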
